A study of Mus musculus with 8 samples.

Results

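A small set of muscle stromal cells that carry mRNA of the chemokine Cxcl9 was described in droplet single-cell RNA-seq of fibro/adipogenic progenitors (FAPs). The cells were chosen as barcodes with at least 500 genes, at most 10% mitochondrial UMIs and at least 1 Pdgfra UMI that had at least 2 UMIs (unique molecular identifiers, 1 per captured mRNA molecule) of Cxcl9. This gave 226 of 2968 filtered cells, of 3797 barcodes in all: 218 of 1435 in the dysferlin knockout library and 8 of 1533 in the wild type library. Because nearly all were in the knockout, the 218 cells, called Cxcl9-positive FAPs, were set against the 1093 filtered knockout cells with 0 Cxcl9 UMIs, called comparison cells. The other 124 knockout cells, with 1 Cxcl9 UMI, were left out of both sets. The cells were thus chosen by their measured Cxcl9 counts, so the Cxcl9 level is given only as a description.

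FAPs were sorted as live PDGFRα-positive cells from collagenase- and dispase-digested hindlimb and psoas muscles of female mice aged 8 months. The wild type animals were C57BL/6. The dysferlin knockout animals carry the strain label BLA/J, whereas the protocol writes B6A/J, and strain, genotype and library preparation cannot be told apart. The labels list 4 samples per group, deposited as 1 matrix per group with no map from cells to samples, so each group was 1 library and no test between groups was possible. All intervals below are 95% intervals, exact Poisson for levels, exact conditional binomial for ratios and exact Clopper-Pearson for shares, and they cover counting error only. The knockout is of the whole animal, and the sort kept PDGFRα-positive cells alone, so the muscle fibres and most immune cells of the tissue were not measured.

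CXCL9, CXCL10 and CXCL11 are small secreted chemokines that bind the receptor CXCR3 on activated T cells and NK cells. Their genes are known for induction by interferon-γ and, for CXCL10, also by type I interferons and NF-κB. In skeletal muscle FAPs support regeneration, produce matrix, and can become fibroblasts or adipocytes, and stromal cells in many tissues can take on an interferon-responsive, chemokine-secreting state.

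The 250 bases before the annotated start are shown for Cxcl9, its chromosomal neighbour Cxcl10, and the leading higher genes Isg15, Igtp, Gbp2 and Timp1. Leading genes are defined below. Genes with larger differences than Gbp2, such as H2-Q6, S1pr3 and Ifi47, also had a window and are not shown. The S1pr3 and Ifi47 windows held none of the motifs named next, and no leading lower gene is shown. The windows are from the RefSeq table of GRCm38.p6 and are written 5′ to 3′ on the gene's strand. Capitals mark matches, on either strand, to the ISRE core GAAANNGAA (interferon-stimulated response element), to the GAS-type motif TTCNNNGAA (interferon-γ activated site), or to the NF-kB consensus. The GAS-type motif reads the same on both strands. The windows are chr5:92328080-92328329 (minus strand) for Cxcl9, chr5:92348890-92349139 (minus) for Cxcl10, chr4:156200819-156201068 (minus) for Isg15, chr11:58199306-58199555 (plus) for Igtp, chr3:142620413-142620662 (plus) for Gbp2 and chrX:20869916-20870165 (plus) for Timp1.
Cxcl9: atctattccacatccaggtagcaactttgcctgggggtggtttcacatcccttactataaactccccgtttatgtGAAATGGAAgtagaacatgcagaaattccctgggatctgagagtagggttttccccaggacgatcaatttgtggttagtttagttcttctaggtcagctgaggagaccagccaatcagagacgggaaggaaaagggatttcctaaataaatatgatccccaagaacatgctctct
Cxcl10: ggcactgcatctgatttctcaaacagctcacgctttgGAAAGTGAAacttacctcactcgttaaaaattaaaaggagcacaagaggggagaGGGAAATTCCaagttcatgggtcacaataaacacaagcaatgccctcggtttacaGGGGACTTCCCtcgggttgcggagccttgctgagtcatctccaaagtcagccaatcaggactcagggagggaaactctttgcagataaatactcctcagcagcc
Isg15: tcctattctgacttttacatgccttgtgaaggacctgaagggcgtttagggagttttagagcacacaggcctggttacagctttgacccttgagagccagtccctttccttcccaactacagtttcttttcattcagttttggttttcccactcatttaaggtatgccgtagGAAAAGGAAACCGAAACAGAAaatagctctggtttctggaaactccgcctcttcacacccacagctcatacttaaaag
Igtp: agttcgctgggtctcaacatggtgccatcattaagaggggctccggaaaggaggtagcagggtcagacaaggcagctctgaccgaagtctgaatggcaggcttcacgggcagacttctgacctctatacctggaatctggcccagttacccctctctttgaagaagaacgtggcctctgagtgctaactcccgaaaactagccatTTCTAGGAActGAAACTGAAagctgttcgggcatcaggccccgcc
Gbp2: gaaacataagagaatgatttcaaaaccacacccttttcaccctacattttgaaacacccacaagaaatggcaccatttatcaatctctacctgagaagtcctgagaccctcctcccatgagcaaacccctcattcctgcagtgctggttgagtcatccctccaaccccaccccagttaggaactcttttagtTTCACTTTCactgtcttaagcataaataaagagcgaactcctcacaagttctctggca
Timp1: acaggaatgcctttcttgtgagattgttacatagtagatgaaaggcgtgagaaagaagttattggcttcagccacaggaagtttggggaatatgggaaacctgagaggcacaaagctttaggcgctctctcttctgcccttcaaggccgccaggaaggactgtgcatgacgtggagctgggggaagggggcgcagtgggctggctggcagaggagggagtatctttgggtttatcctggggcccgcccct

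The Cxcl9 window held 1 ISRE core, 175 to 167 bases before the start, and no match to the other motifs. The Cxcl10 window held 1 ISRE core 213 to 205 bases before the start, an NF-kB match at 159 to 150, and overlapping NF-kB matches between 104 and 94. Isg15 held 3 overlapping ISRE cores between 78 and 58 bases before its start. Igtp held a GAS-type match at 45 to 37 next to an ISRE core at 34 to 26, and Gbp2 held 1 ISRE core on its opposite strand at 58 to 50. The Timp1 window held none of these letters. Of 32851 windows of this length in the table, 7.129% held an ISRE core, 7.02% a GAS-type match and 7.251% an NF-kB match. Counted by gene, over 27025 genes with 1 or more windows, the shares were 8.181%, 8.13% and 8.233%. Among the 25 leading higher genes defined below, 17 had a window, of which 9 held an ISRE core, 2 a GAS-type match and 3 an NF-kB match. Of the 15 leading lower genes, 9 had a window, of which 0 held an ISRE core, 3 a GAS-type match and 0 an NF-kB match. In Bst2, a leading higher gene, a GAS-type, an ISRE and an NF-kB match overlap. A match describes these letters only and is not a measured binding site.

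Barcodes numbered 1724 in the knockout matrix (21476948 UMIs) and 2073 in that of the wild type (17642513 UMIs), against about 8000 cells aimed at by the protocol. Dysf, the gene of dysferlin, was too sparse to check the labels, with 9 UMIs in filtered cells of the wild type and 14 in those of the knockout. The matrices shared 13 barcodes, of which 1 was a knockout Cxcl9-positive FAP and 3 were comparison cells. The Cxcl9-positive FAPs were the deeper cells: their median was 16828.5 UMIs and 4138 genes (range 1542 to 39754 UMIs), against 11821 UMIs and 3441 genes in comparison cells. Their median mitochondrial share was 3.09%, against 2.80%.

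Cxcl9-positive cells made up 15.2% of the filtered knockout cells (interval 13.4 to 17.2) and 0.522% of the filtered wild type cells (0.226 to 1.03). At least 1 Cxcl9 UMI was present in 23.8% of the knockout cells (21.6 to 26.1) and in 1.44% of the wild type cells (0.901 to 2.16). Depth differed between the libraries, so each cell was also thinned to 5000 UMIs. That left out 172 shallower knockout and 299 wild type cells, 4 of them knockout Cxcl9-positive FAPs. After thinning, 128 of 1263 knockout cells (10.1%) and 2 of 1234 wild type cells (0.162%) still had at least 2 Cxcl9 UMIs.

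Cxcl9 was spread very unevenly over the cells that carried it. Individual Cxcl9-positive FAPs of the knockout held 2 to 665 Cxcl9 UMIs, with a median of 6 and quartiles of 3 and 18. The 5 highest cells held 665, 359, 211, 206 and 164 UMIs. Just inside the threshold were 44 cells with 2 UMIs, and just outside it 124 cells with 1. At the upper end 59 cells had over 15 UMIs and 9 had over 100. The 10 highest cells held 44.2% of the Cxcl9 UMIs of all 218, and the single highest 13.1%. In UMIs per 1000000 UMIs of the cell (CPM), Cxcl9 ran from 70.8 to 24102 with a median of 373. The Cxcl9-positive FAPs together held 86.8% of all Cxcl9 UMIs of the knockout matrix, 5067 of 5838.

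**Figure D1:**
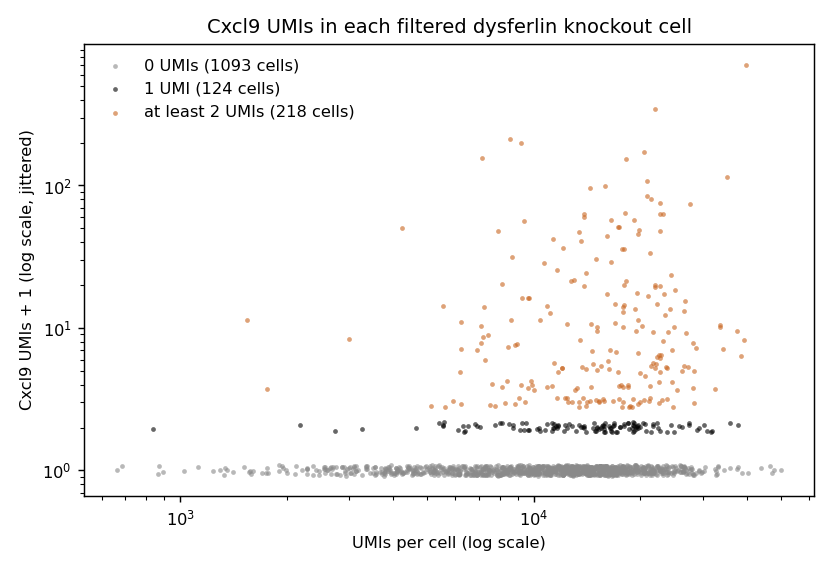
Cxcl9 UMIs plus 1 (y axis, log scale) against total UMIs of the cell (x axis, log scale) for the 1435 filtered knockout cells, 1 point per cell, coloured by 0, 1 or at least 2 Cxcl9 UMIs. The 218 cells with at least 2 UMIs reach 665 and lie over most of the depth range, with a median of 16828.5 UMIs against 11821 in the cells with 0.

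Barcodes with few genes were taken as a rough guide to free Cxcl9 RNA. Every barcode of the knockout matrix had at least 500 UMIs, and whether these were empty droplets or shallow cells was not tested. The 53 knockout barcodes with under 500 genes (median 618 UMIs) held 8 Cxcl9 UMIs among 43688, or 183 CPM (79.1 to 361). If that were the level of free RNA, 10922 UMIs of free RNA would hold 2 Cxcl9 UMIs on average. A droplet with less free RNA could also hold 2, and how many of the chosen cells did so was not tested. The rate of 183 CPM lies inside the range of the Cxcl9-positive FAPs, whose lowest cell was at 70.8 CPM. No Cxcl9 UMI was seen among 69425 UMIs of the 92 such wild type barcodes. Among knockout barcodes without a Pdgfra UMI and with fewer than 6 of 10 FAP markers, 2 of 20 had a Cxcl9 UMI (10.0%, median depth 2822.5 UMIs). Of 5 knockout endothelial barcodes (median 3232 UMIs) 0 had one, and of 36 in the wild type (median 3178 UMIs) 3 had one. These cells are few and shallow, so their shares have wide limits, 1.23% to 31.7% for the first. In the knockout 16 barcodes without a Pdgfra UMI also had at least 2 Cxcl9 UMIs, and 15 of those carried at least 6 FAP markers.

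The chosen cells carried FAP markers, of which Pdgfra was required by the rule in both sets. All 218 cells had at least 6 of the 10 FAP markers, as did all 1093 comparison cells. Of the 9 markers other than Pdgfra (such as Dcn and Col3a1), 217 and 1089 cells had at least 6. The summed level of all 10 markers, Pdgfra included, was 49617 CPM against 50427. Per cell the summed FAP markers ran from 17 to 2147 UMIs with a median of 805.5, against 29 to 2281 and 576. Ptprc, the leukocyte antigen CD45, had a UMI in 1 Cxcl9-positive FAP and in 6 comparison cells. No Cxcl9-positive FAP had 3 or more of the 12 T or NK cell markers or of the 6 dendritic cell markers. Of the T or NK cell markers Cd3e, Cd4, Ncr1 and Ifng were at 0, and the other 8 had 1 to 4 UMIs each in Cxcl9-positive FAPs, such as Cd3d with 3 and Cd2 with 4. Their summed level was 3.80 CPM against 0.958 CPM in comparison cells, with at most 2 UMIs in 1 Cxcl9-positive FAP. The satellite cell genes Pax7, Myf5, Myod1 and Cdh15 were at 0 in both sets. The other satellite cell markers were present: Vcam1 stood at 108 against 66.4 CPM, Des at 8.4 against 8.1 CPM and Chodl at 0.543 against 0.516 CPM. All 4 adipocyte markers were at 0 in Cxcl9-positive FAPs. Ifng, which encodes interferon-γ, had 3 UMIs in the whole knockout matrix and 0 in the wild type matrix.

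Markers of some other cell types moved with the chosen cells. At least 3 of 4 haemoglobin genes were present in 16 Cxcl9-positive FAPs and 0 comparison cells, with summed levels of 116 and 7.22 CPM. At least 3 of 4 mast cell genes were present in 13 and 3 cells (52.7 and 13.5 CPM). At least 3 of 14 macrophage or monocyte genes were present in 10 and 2 cells. Their summed level was 64.9 against 134 CPM, but 1 comparison cell held 1163 of the UMIs (48.5 CPM without it) and 1 Cxcl9-positive FAP 120 (32.6 CPM without it). The macrophage markers Csf1r, Fcgr1, Ccr2 and Mrc1 were at 0 in Cxcl9-positive FAPs, Fcgr1 also in comparison cells. The other macrophage markers were mixed. C1qa stood at 3.26 against 0.663 CPM, and C1qb and Cd68 were also higher. Cd14 stood at 9.50 against 4.49 CPM, with 20 of its 35 UMIs in 1 Cxcl9-positive FAP. Ptprc, Adgre1, C1qc, Itgam, Cx3cr1 and Lyz2 were lower, though 1 comparison cell held 971 of 1007 Lyz2 UMIs. Tenocyte markers reached 3 of 6 in 9 and 12 cells (1268 and 888 CPM). Nearly all of that summed level was Thbs4, at 1228 and 853 CPM. Of the other tenocyte markers, Fmod (23.1 against 15.5 CPM) and Tnmd (15.7 against 14.7 CPM) were higher, and Scx, Mkx and Kera were lower. Most of the cells with haemoglobin, mast cell or macrophage genes were in 1 cluster, numbered 11. When the knockout cells were clustered without Cxcl9, cluster 11 held 22 Cxcl9-positive FAPs, and these included all 16 cells with the haemoglobin genes, all 13 with the mast cell genes and 9 of the 10 with the macrophage genes. These 22 cells had a median of 9.17% mitochondrial UMIs and 23229 UMIs. They held 2 to 9 Cxcl9 UMIs (median 4, 98 in all), and their Iigp1 level was 61.4 CPM against 441 CPM in the other 196. All 22 also had at least 6 FAP markers. Results without cluster 11 are given with the gene counts.

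Levels of all other genes were compared as UMIs summed over each set, 3682591 UMIs in Cxcl9-positive FAPs and 13573074 in comparison cells. Of 5990 genes with a mean of at least 20 CPM over both sets, 49 were at least 2-fold higher in Cxcl9-positive FAPs (0.818%) and 63 at least 2-fold lower (1.05%). At a 1.5-fold limit 151 were higher (2.52%) and 305 lower (5.09%). The median gene had a log2 ratio of -0.05, and 92.4% of genes lay within 1.5-fold. Of the 49 higher genes, 34 were still at least 2-fold higher without their single highest cell, and 8 had over 20% of their UMIs in 1 cell. Without the cells of cluster 11 the 2-fold counts were 56 and 72, and with each cell thinned to 5000 UMIs before it was chosen they were 84 and 178. The leading genes named here are the 25 largest and 15 smallest ratios among genes seen in at least 20% of the cells of the higher set with at most 20% of its UMIs in 1 cell. Ratios were also taken within clusters (the median over 7 clusters) and against the 204 comparison cells with at least 2 Vcam1 UMIs, called Vcam1-bearing cells, and are named where a direction turned. Gene lists of known pathways are described by how many of their measured genes passed 1.5-fold, to be read against the 2.52% and 5.09% of all genes.

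Among secreted chemokines, Cxcl10 had the largest difference. Cxcl10 stood at 240 CPM (224 to 256) in Cxcl9-positive FAPs, 7.74 CPM in comparison cells and 5.25 CPM in wild type cells without Cxcl9, a 31.0-fold difference within the knockout (25.3 to 38.3). It was a gene of few cells: 15.1% of Cxcl9-positive FAPs had a Cxcl10 UMI against 3.66% of comparison cells, and 1 cell held 63.4% of the Cxcl10 UMIs. Without that cell the log2 ratio was 3.50 in place of 4.95. Ccl7, a ligand of CCR2 on monocytes, was 4.43-fold higher (273 against 61.7 CPM), with 23.4% of its UMIs in 1 cell and a log2 ratio of 1.76 without it. Ccl2, the main CCR2 ligand, stood at 407 against 164 CPM (2.48-fold, 2.32 to 2.65) and was seen in 25.7% against 8.14% of cells. Ccl8, a related monocyte attractant, stood at 156 against 72.9 CPM, and Cx3cl1, the membrane-bound chemokine fractalkine, at 33.1 against 11.1 CPM. Cxcl16, a ligand of CXCR6, had a log2 ratio of 0.85.

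The chemokines did not move as 1 block. Of the 22 other chemokine genes listed, 11 were measured, of which 5 passed 1.5-fold upward and 3 downward (median log2 ratio 0.53). Cxcl12, the ligand of CXCR4 that FAPs express at high level, was at -0.06 and Ccl11, which draws eosinophils, at 0.22. Cxcl1, a neutrophil attractant, was at -1.14 and the scavenger receptor Ackr3 at -0.86. Of 11 measured cytokines and cytokine receptors of 21 listed, 1 was higher, Il34 (a ligand of the CSF1 receptor, log2 ratio 1.00), and 1 lower, the IL-6 receptor gene Il6ra (-1.29).

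The receptors that sense interferon stood at nearly equal levels in both sets. Ifngr1, a chain of the interferon-γ receptor, was at 320 CPM in Cxcl9-positive FAPs and 317 CPM in comparison cells. Log2 ratios were 0.29 for Ifngr2, 0.04 for the type I receptor gene Ifnar1, -0.19 for the kinase gene Jak1 and 0.26 for the transcription factor gene Irf1. Of the 16 measured genes of this list (of 18), 2 passed 1.5-fold upward and 0 downward, and the list median was 0.07. Irf7, a regulator that is itself interferon-induced, was 2.92-fold higher (73.6 against 25.2 CPM). Irf8, below the level filter, stood at 15.8 against 3.98 CPM.

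The interferon-inducible GTPases, which act against pathogens inside cells, were higher in nearly every measured gene. Of 8 measured (of 16 listed) 7 were at least 1.5-fold higher and 0 lower, with a median log2 ratio of 1.34. Iigp1 stood at 393 CPM (373 to 413) in Cxcl9-positive FAPs, 104 CPM in comparison cells and 18.7 CPM in wild type cells without Cxcl9. It had a UMI in 68.8% of Cxcl9-positive FAPs and 33.4% of comparison cells. The immunity-related GTPases Igtp (70.1 against 18.6 CPM) and Ifi47 (57.6 against 16.9 CPM) were 3.77-fold and 3.41-fold higher. The guanylate-binding proteins Gbp2 (117 against 43.8 CPM) and Gbp3 (45.3 against 18.8 CPM) were also among the leading genes. In wild type cells without Cxcl9 the Gbp2 level was 38.2 CPM. Of the genes below the level filter, Gbp4 stood at 16.3 against 3.24 CPM and Tgtp2 at 18.7 against 2.58 CPM. The Gbp genes and the Tgtp pair have close copies, so their reads could be split.

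Of 36 listed interferon-stimulated genes 25 were measured, 12 of which were at least 1.5-fold higher and 0 lower (median log2 ratio 0.45). Isg15, a ubiquitin-like modifier, was at 243 CPM against 72.9 CPM (3.34-fold, 3.04 to 3.65) and at 23.3 CPM in wild type cells without Cxcl9. Ifit3 and Ifit1, which bind viral RNA or its partners, stood at 125 against 35.2 CPM and at 96.7 against 41.0 CPM, with a near copy of Ifit3 (Ifit3b) that makes its count uncertain. Bst2, the membrane tether tetherin, was seen in 91.7% of Cxcl9-positive FAPs and 66.2% of comparison cells (382 against 163 CPM). Zbp1, a sensor of Z-form nucleic acids, was 2.84-fold higher (61.9 against 21.8 CPM). Other members differed less: log2 ratios were 0.45 for Ifitm3, 0.23 for the RNA sensor Ifih1 and 0.02 for Dtx3l, and Ifit2, below the level filter, was at 13.0 against 13.2 CPM.

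Genes of class I antigen presentation were higher as well. Of 17 listed genes 16 were measured, 7 at least 1.5-fold higher and 0 lower (median 0.50). B2m, the shared light chain of class I molecules, stood at 1337 against 819 CPM, with 401 CPM in wild type cells without Cxcl9, and was seen in nearly every cell of both knockout sets. The heavy chain genes H2-K1 (1138 against 627 CPM), H2-Q6 (48.9 against 12.2 CPM) and H2-Q7 (75.2 against 26.3 CPM) were also higher, though near-identical copies make the counts of this family uncertain. Tap1, a chain of the peptide transporter, was 2.46-fold higher (56.8 against 23.1 CPM). Of 5 immunoproteasome genes 2 passed 1.5-fold upward, the catalytic subunit genes Psmb8 and Psmb9, with log2 ratios of 1.01 and 0.92. The median of the 5 was 0.56 and the lowest 0.43. The 3 constitutive catalytic subunits had a median of 0.30, with 0 past 1.5-fold. The class II genes were almost unmeasured: only Cd74 passed the level filter, at 10.0 against 42.6 CPM, and its direction was not stable: the log2 ratio turned from -2.08 to 0.67 without its single highest comparison cell, and its median within clusters was 2.92.

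**Figure D2:**
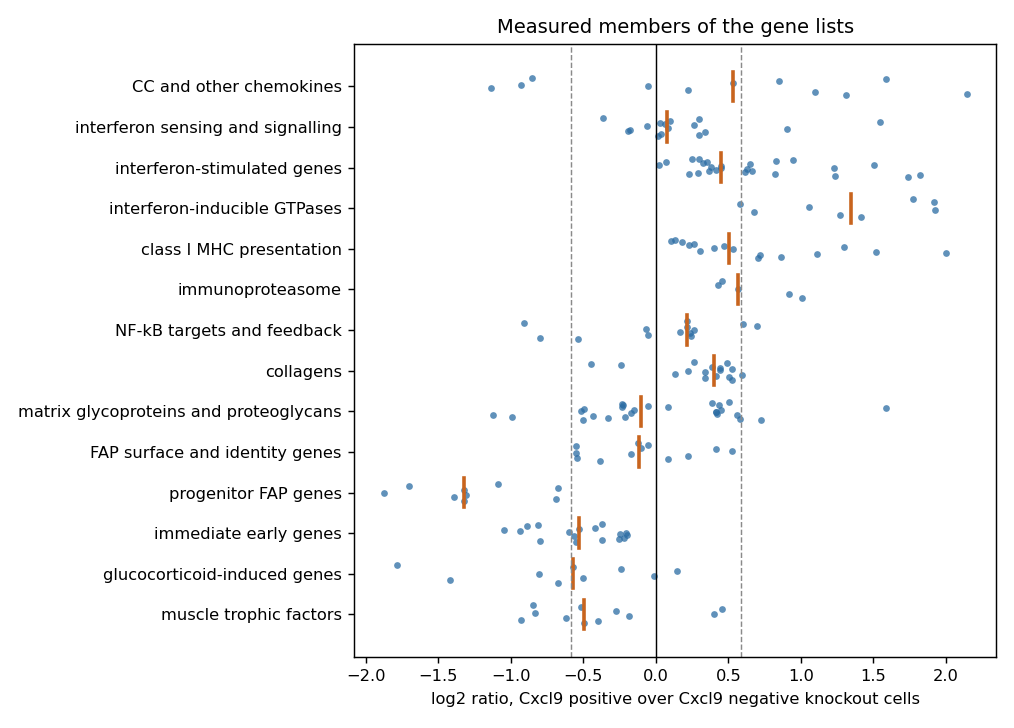
Log2 ratio of Cxcl9-positive FAPs over comparison cells (x axis) for the measured genes of 14 pathway or state lists (y axis), 1 point per gene, with the list median as an orange bar and 1.5-fold as dashed lines. The interferon-inducible GTPases have a median of 1.34 and the progenitor FAP genes one of -1.32.

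Targets of NF-κB, the other main inducer of chemokines, were mixed: of 13 measured genes of 20 listed, 2 passed 1.5-fold upward and 2 downward (median 0.21). Vcam1, an adhesion molecule for leukocytes, stood at 108 against 66.4 CPM and Sod2, a mitochondrial superoxide dismutase, had a log2 ratio of 0.60. The feedback gene Nfkbiz was at -0.80 and the prostaglandin synthase gene Ptgs2 at -0.91. In the complement list 2 of 9 measured genes (of 11) were higher and 3 lower. C2 (0.65) and Cfb (0.60), which supply parts of the C3 convertases, were higher, with the limit that their loci overlap a read-through gene. The inhibitor Cd55 (-1.39) and C4b (-0.64) were lower, C4b only against knockout cells: against wild type cells without Cxcl9 it was at 1.12.

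Timp1, a secreted inhibitor of matrix metalloproteinases that also acts as a signal, was the matrix-related gene with the largest difference. It stood at 934 CPM (903 to 965) in Cxcl9-positive FAPs, 216 CPM in comparison cells and 75.8 CPM in wild type cells without Cxcl9. A Timp1 UMI was present in 88.1% and 50.8% of the 2 knockout sets. A single cell held 19.2% of its UMIs, and without it the log2 ratio was 1.80 in place of 2.11. Its relative Timp3 went the other way, at 233 against 535 CPM (2.30-fold lower). The protease gene Mmp3 stood at 525 against 324 CPM. Of 15 measured proteases and inhibitors of 17 listed, 3 were higher and 1 lower (median 0.10).

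Structural matrix genes were mixed. All 16 listed collagens were measured, 1 at least 1.5-fold higher and 0 lower, with a median of 0.40, and Col3a1 stood at 13788 against 9725 CPM. Cpxm1, which encodes a secreted carboxypeptidase-like protein, was 2.07-fold higher (780 against 377 CPM). Postn, a matricellular protein of fibrosis, stood at 992 against 601 CPM. Tnc, the wound matrix protein tenascin C, was at 98.8 against 32.9 CPM in all, but within clusters its median log2 ratio was -0.27. Eln and Fbln1, genes of elastic fibres, were lower (-1.12 and -0.99). In all, 2 of 26 matrix glycoprotein and proteoglycan genes passed 1.5-fold upward and 2 downward (median -0.10).

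Progenitor genes of FAPs were lower as a group. All 9 measured genes of the 10 listed were at least 1.5-fold lower, with a median of -1.32. Cd55 stood at 83.6 CPM (74.6 to 93.5) against 220 CPM, 2.63-fold lower, and at 218 CPM in wild type cells without Cxcl9. Smpd3, a sphingomyelinase gene, was 3.68-fold lower (32.3 against 119 CPM). Dpp4, a surface peptidase of progenitor fibroblasts, stood at 37.2 against 93.1 CPM, and the guidance gene Sema3c at 102 against 253 CPM. Pi16, another surface marker of these fibroblasts, was at 408 against 657 CPM. Within clusters only 1 of the 9 genes passed 1.5-fold downward (Smpd3 at -0.09, Pi16 at 0.28), and against Vcam1-bearing cells 1 of 8 did (Pi16 at 0.21).

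Some genes of other FAP states were also lower. Of 8 measured interstitial FAP genes 3 (Gdf10, Fmo2 and Nmb) passed 1.5-fold downward and 0 upward, but the list median was 0.05 and its summed level 3996 against 2946 CPM, with the chemokine Cxcl14 at 2947 against 2036 CPM. Inmt, a methyltransferase gene, stood at 10.0 CPM against 75.5 CPM, 7.52-fold lower, and at 326 CPM in wild type cells without Cxcl9. Of 7 measured genes of other stromal states 5 were lower and 0 higher, while their summed level was 1494 against 1388 CPM. The lubricin gene Prg4 stood at 182 against 509 CPM with a UMI in 46.3% of the cells of each set. Of the 12 FAP surface and identity genes 0 passed 1.5-fold in either direction, with a median of -0.11. Pdgfra, which was used to choose the cells, stood at 398 against 519 CPM.

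Immediate early and glucocorticoid-induced genes were lower in part. Of 17 measured immediate early genes of 18 listed, 6 were lower and 0 higher (median -0.53), among them Klf4 (234 against 484 CPM) and the mRNA-decay factor Zfp36 (133 against 246 CPM). These genes also respond to tissue digestion. Of 9 glucocorticoid-induced genes 4 were lower and 0 higher (median -0.57). Cdkn1a, the cell cycle inhibitor p21, was 3.45-fold lower (36.9 against 127 CPM), with 390 CPM in wild type cells without Cxcl9. Zbtb16, a hormone-induced transcription factor gene, was 2.67-fold lower (35.3 against 94.4 CPM, 390 CPM in the wild type cells). By contrast the metal- and stress-responsive metallothionein genes Mt1 (3670 against 1865 CPM) and Mt2 (log2 ratio 0.83) were higher.

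Trophic factors for muscle were lower or little different. Of 11 measured genes of 18 listed, 4 were lower and 0 higher (median -0.50). Vegfa, the angiogenic factor, was at -0.93, Fst, which binds activin and myostatin, at -0.85 and Igfbp5 at -0.83, though Igfbp5 was at 0.016 against Vcam1-bearing cells. Igf1, a growth factor of muscle fibres, was at 427 against 603 CPM, short of 1.5-fold. In the TGF-β list 3 of 13 measured genes were lower and 0 higher: Tgfbi, Ltbp4 and Inhba. The 13 measured glycolysis genes and 7 measured adipogenic genes had 0 past 1.5-fold.

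Other leading higher genes lay outside these lists. S1pr3, a receptor for sphingosine 1-phosphate, stood at 47.0 against 13.0 CPM, and Angptl4, a secreted lipase inhibitor, at 188 against 77.2 CPM. Apol9a, of the apolipoprotein L family, stood at 30.4 against 13.0 CPM. Gm13889 (42.6 against 9.58 CPM), F830016B08Rik (53.2 against 16.8 CPM) and Gm4951 (55.7 against 23.9 CPM) are less described genes. The histone gene Hist1h1e stood at 79.8 against 31.7 CPM, but its log2 ratio was -0.0095 within clusters. Other leading lower genes were the netrin gene Ntn1 (17.4 against 61.0 CPM), the monoacylglycerol lipase gene Mgll (13.8 against 42.8 CPM), the adhesion gene Opcml (9.78 against 35.1 CPM), the matricellular gene Nov (48.6 against 132 CPM), Ildr2, Efhd1, Camk1d, Stxbp6, Ston2, Tmem100, Abca6 and 1700019D03Rik.

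**Figure D3:**
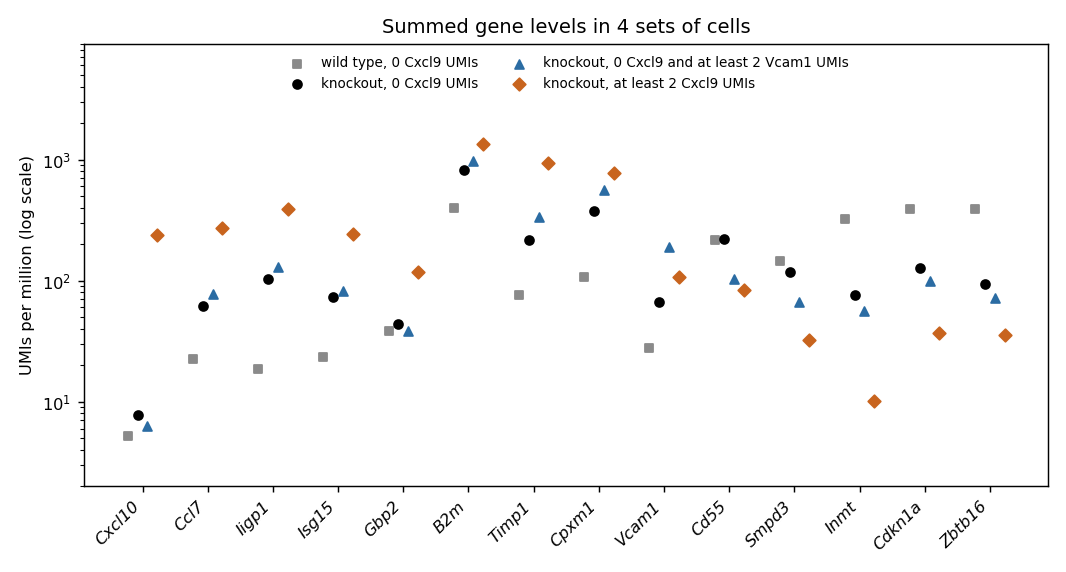
Level in CPM (y axis, log scale) of 14 genes (x axis) in wild type cells with 0 Cxcl9 UMIs, knockout comparison cells, knockout Vcam1-bearing cells and knockout Cxcl9-positive FAPs, drawn as points without intervals. Cxcl10 is at 5.25, 7.74, 6.30 and 240 CPM, and Inmt at 326, 75.5, 56.2 and 10.0 CPM. Vcam1 was used to choose the Vcam1-bearing cells.

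Proliferation genes were carried by a few cells. At least 3 of 10 such genes were present in 12 of 218 Cxcl9-positive FAPs (5.50%), 17 of 1093 comparison cells (1.56%) and 5 of 1511 wild type cells without Cxcl9 (0.331%). Mki67 and Top2a, made in dividing cells, had log2 ratios of 1.72 and 1.85, with 24.6% and 29.2% of their UMIs in 1 cell. Within clusters Mki67 was higher in 1 and lower in 5 of the 6 clusters where it was seen, with no finite median. Top2a was higher in 4 and lower in 1 of 5.

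Many levels differed with the amount of Cxcl9, not only across the threshold of 2 UMIs. Cells were placed in bins of 0, 1, 2, 3 to 5, 6 to 15 and over 15 Cxcl9 UMIs, of 1093, 124, 44, 57, 58 and 59 cells. Iigp1 stood at 104, 167, 173, 341, 242 and 734 CPM over these bins. Isg15 stood at 72.9, 118, 99.3, 153, 261 and 408 CPM, so cells with 1 and 2 Cxcl9 UMIs both lay below those with more. Gbp2 stayed between 39.7 and 43.8 CPM in the first 3 bins and reached 245 CPM in the last. Cxcl10 was at 63.1 CPM in cells with 6 to 15 Cxcl9 UMIs and at 771 CPM in cells with over 15, where 1 cell held 559 Cxcl10 UMIs and the level without it was 231 CPM. Timp1 stood at 216, 496, 532, 649, 959 and 1450 CPM, but single cells weighed on it, 1 of them with 661 Timp1 UMIs in the last bin. Without the highest cell of each bin Timp1 stood at 208, 426, 217, 540, 770 and 833 CPM. Irf7 went from 25.2 CPM in the first bin to 108 CPM in the last.

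Other genes followed the reverse order or none. Cd55 stood at 220, 150, 116, 98.0, 80.1 and 52.0 CPM over the bins, lower in each next one. Cdkn1a stood at 127, 53.8, 52.6, 40.0, 31.0 and 29.4 CPM. Smpd3 went from 119 to 9.82 CPM and Inmt from 75.5 CPM to 0 UMIs in cells with over 15 Cxcl9 UMIs. Ccl2 had no such order, at 164, 453, 387, 209, 317 and 702 CPM. Ccl7 was highest in cells with 2 UMIs (484 CPM), where 1 cell held 235 of its UMIs. Without the highest cell of each bin Ccl7 stood at 56.3, 90.8, 134, 96.2, 132 and 342 CPM. Col3a1 differed between 0 and 1 Cxcl9 UMI (9725 and 14286 CPM) and stayed between 12097 and 14738 CPM beyond. Median depth was 11821 UMIs in the first bin and between 15099 and 17442 in the other 5, so depth differed mainly at the first step, and its part in the result was not tested.

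**Figure D4:**
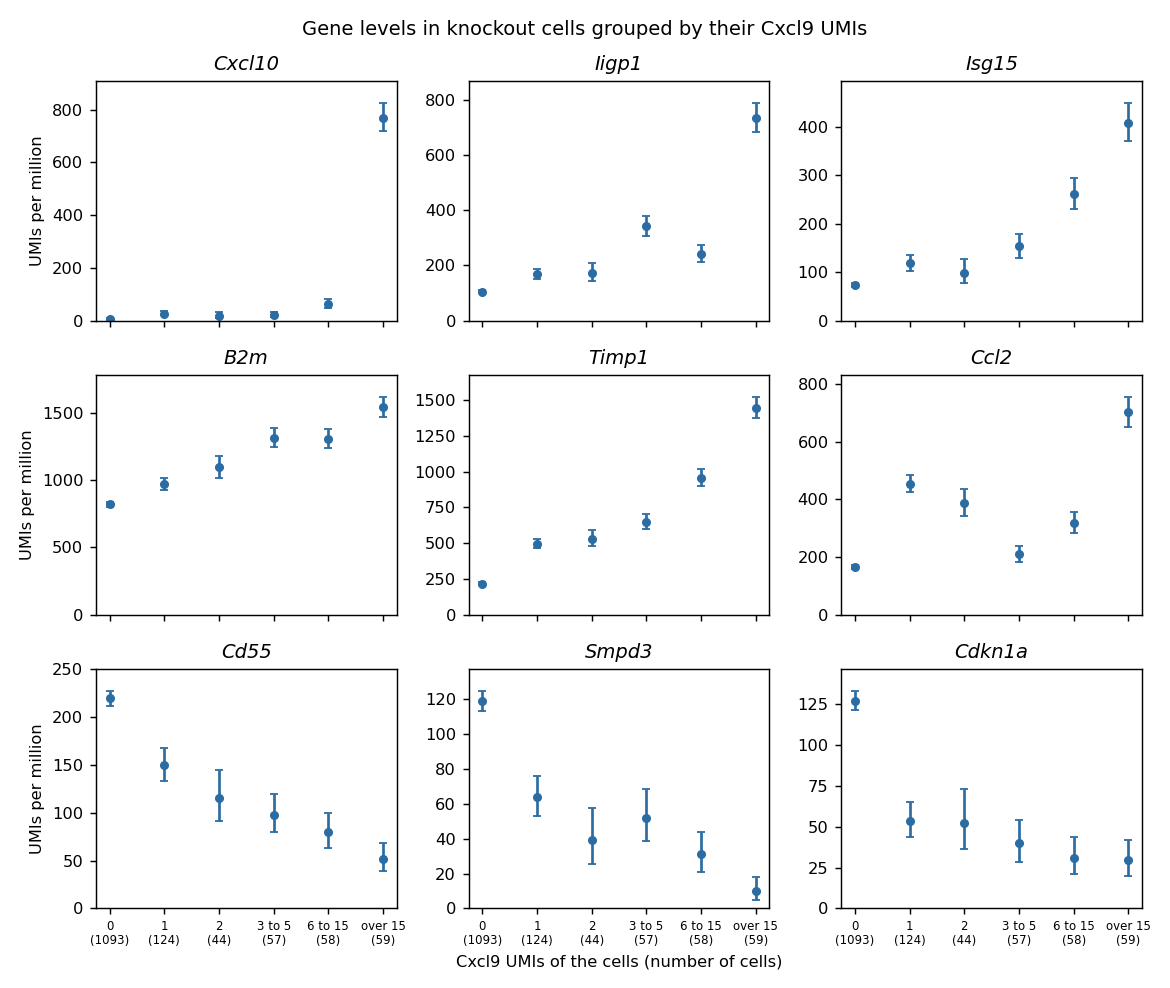
Level in CPM (y axis, from 0) of 9 genes, 1 panel each, by the number of Cxcl9 UMIs of the knockout cell (x axis, 6 bins), with 95% Poisson intervals. Iigp1, Isg15 and B2m are highest in the cells with over 15 Cxcl9 UMIs, as is Timp1, where 1 cell holds 661 UMIs (833 CPM without it), Cd55, Smpd3 and Cdkn1a are lowest there, and Ccl2 has no steady order.

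Single cells carried different mixtures of these genes. Of the 218 Cxcl9-positive FAPs, 192 had a Timp1 UMI (88.1%), 150 Iigp1 (68.8%), 149 Vcam1 (68.3%), 147 Isg15 (67.4%), 131 Ccl8 (60.1%), 91 Ccl7 (41.7%), 56 Ccl2 (25.7%) and 33 Cxcl10 (15.1%). A Ccl2 UMI was present in 27.3% of the cells with an Iigp1 UMI and 22.1% of those without. For Timp1 these shares were 88.0% and 88.2%, so both pairs of shares lay close together. Over all 1435 filtered knockout cells the genes with the highest Spearman correlation with Cxcl9 were Timp1 (0.37), Postn (0.30), B2m (0.30), Iigp1 (0.30) and Bst2 (0.29). Cxcl9 correlated with depth at 0.22 over the same cells and at -0.31 within the 218 Cxcl9-positive FAPs. Within the 218 cells the highest were Rrbp1 (0.37), Bst2 (0.37) and Ly6e (0.36), and 3 genes were among the 15 highest in both. All are weak values in sparse counts and describe only which genes rank first.

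The Cxcl9-positive FAPs were not 1 cluster. Clustering of the knockout cells without Cxcl9 gave 12 clusters, and every one held at least 1 of them. Cluster 6, led by Ccl2, Ifi44, Ifit3 and Isg15, held 67 among 127 cells (52.8%, 43.7 to 61.7), that is 30.7% of the Cxcl9-positive FAPs, and 2597 of the 5191 Cxcl9 UMIs of the filtered knockout cells. Cluster 11, described above, held 22 among 43 cells (51.2%). The cycling cluster 5, led by genes such as Mki67 and Top2a, held 13 of 49 (26.5%), and cluster 3, with Cpxm1 among its leading genes, 40 of 190 (21.1%). The lowest shares were 4 of 178 (2.25%) in cluster 10, led by genes such as Smpd3 and Efhd1, 1 of 45 (2.22%) in cluster 4, with Gdf10 and Inmt, and 2 of 233 (0.858%) in cluster 0, with Bmp2 and Cdkn1a. Among its nearest neighbours the median Cxcl9-positive FAP had 42.9% of its own kind, against 21.4% for cells with 1 Cxcl9 UMI and 7.14% for comparison cells.

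**Figure D5:**
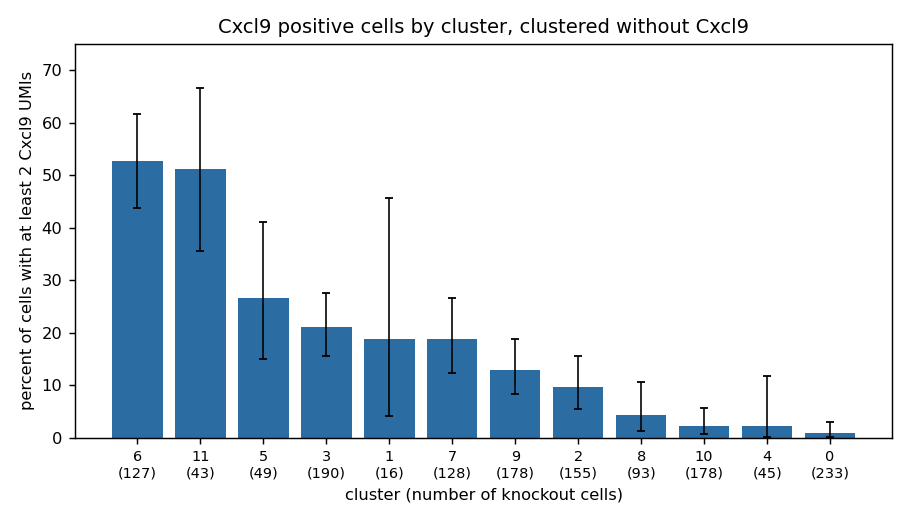
Percent of the cells of each knockout cluster (x axis, 12 clusters) that were Cxcl9-positive FAPs (y axis, from 0), with Clopper-Pearson 95% intervals. Clusters 6 and 11 stand at 52.8% and 51.2%, and clusters 0, 4 and 10 below 3%.

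Differences were smaller when taken within clusters. Within the 7 clusters with at least 10 Cxcl9-positive and 10 comparison cells, the median over clusters was at least 2-fold higher for 23 genes (0.384%) and 2-fold lower for 34 (0.568%). At 1.5-fold 1.89% of genes were higher and 3.26% lower. Timp1 was higher in 7 of 7 clusters (median log2 ratio 1.04), as were Irf7 (1.05), Ifi47 (0.95), Cpxm1 (0.56) and Ccl7 (0.92). Iigp1 was higher in 6 of 7 (median 1.19) and B2m in 6 of 7 (0.61). Isg15 was higher in 5 of 7 with a median of 0.29 in place of 1.74, Ifit3 had a median of 0.25 and Ifit1 one of -0.96. By list, 7 of the 16 class I genes, 4 of the 8 GTPases and 3 of the 25 interferon-stimulated genes were at least 1.5-fold higher within clusters, not always the genes higher overall: Tap1 had a median of 0.32. Of the interferon-stimulated genes 2 were lower. Cdkn1a and Inmt were lower in 7 of 7 clusters (medians -1.51 and -2.86). Of the 9 progenitor genes 1 was still 1.5-fold lower (median -0.32), and Smpd3 was at -0.09.

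Another comparison used knockout cells of similar depth that carry another inflammatory transcript. These were the 204 Vcam1-bearing cells, a subset of the comparison cells with a median of 15849 UMIs. Of 5956 genes measured, 30 were at least 2-fold higher in Cxcl9-positive FAPs (0.504%) and 20 lower (0.336%). At 1.5-fold 1.78% were higher and 2.80% lower. Iigp1 stood at 393 against 130 CPM, Isg15 at 243 against 82.8 CPM, Gbp2 at 117 against 38.1 CPM and Timp1 at 934 against 333 CPM. Of the 8 measured GTPases 7 were at least 1.5-fold higher here, with a median of 1.22. By contrast 1 of 8 measured progenitor genes was lower (median -0.29), Cd55 standing at 83.6 against 103 CPM. Cthrc1, a matrix gene at 0.82 against all comparison cells, was at -0.19 here. Vcam1, at -0.82, chose these cells.

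The Cxcl9-positive FAPs held part of the difference between the knockout and wild type libraries. They were 15.2% of the filtered knockout cells and 19.2% of their UMIs. They held 85.0% of the knockout's Cxcl10 UMIs, 49.1% of Ccl7, 46.9% of Timp1, 45.6% of Iigp1, 42.4% of Isg15 and 27.5% of B2m. Of 5932 genes, 300 were at least 1.5-fold higher in the knockout (5.06%) with these cells included and 274 (4.62%) without them. Cxcl10 went from a log2 ratio of 3.18 to 0.76, Gbp2 from 0.59 to 0.18, Iigp1 from 3.15 to 2.58 and Timp1 from 2.29 to 1.69. The Cxcl10 share of 85.0% and its ratio of 3.18 rest largely on 1 cell, which held 559 Cxcl10 UMIs.

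The 8 wild type cells that met the rule were near its threshold. They held 2, 2, 2, 2, 2, 3, 4 and 5 Cxcl9 UMIs, and all 8 had at least 6 FAP markers. Their Iigp1 level rested on 1 UMI (8.49 CPM, against 18.7 CPM in wild type cells without Cxcl9) and Isg15 on 0 UMIs, which allows up to 31.3 CPM. Cxcl10 had 12 UMIs in 2 cells, Timp1 18 in 2 cells and Ccl2 31 in 1 cell. B2m stood at 603 CPM (471 to 761) against 401 CPM. They held 117736 UMIs in all, and no gene-by-gene comparison with the knockout set was made.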

How the data were processed

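The authors deposited 1 matrix of raw UMI counts per gene and barcode for each group, from PDGFRα-sorted cells and the 10x Chromium 3′ kit version 3, per the labels' protocols. The submitters' processing notes name mm10, Seurat and Cell Ranger 3.0.0 and state no role for them. Per the file headers, the matrices were written by software version 3.0.2. The rule for calling cells was not given in the sources used here. Counts of 36 rows that share a gene symbol were summed.

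The Cxcl9-positive FAPs, the gene lists and the settings were chosen with earlier results of these data known. UMIs were summed per set and divided by the set's total (CPM, per 1000000). Genes with a mean of at least 20 CPM were compared, with 2-fold and, for lists, 1.5-fold as size limits. With 1 library per group there was no replicate and no test. The leading genes were the 25 highest and 15 lowest ratios with a UMI in at least 20% of the higher set's cells and at most 20% of its UMIs in 1 cell, and the 15 genes with the highest Spearman correlation with Cxcl9 were listed. Knockout cells were clustered without Cxcl9 (counts scaled to 10000 per cell, log-transformed, Leiden resolution 0.8) in scanpy 1.11.5. Scrublet marked 4 of 1584 knockout barcodes (0.253%) as doublets, none a Cxcl9-positive FAP, and none was removed. Per the labels' protocols the sort had gated doublets out, a step before the cells entered droplets. Thinning drew 5000 UMIs per cell without replacement. Python 3.11.15, numpy 2.4.6, scipy 1.17.1, pandas 2.3.3 and matplotlib 3.10.9 were used, and the ratio and interval code was tested on simulated data. Depth per set is given in the text. Some genes of the lists are counted but not reported by name here.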

Additional observations from a re-analysis of the deposited data

How the results depend on the processing

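No paired analysis was possible because each group is 1 matrix in which cells carry no sample or replicate number, and no replicate could be left out for the same reason. The 2-fold counts of genes higher and lower in Cxcl9-positive FAPs were 49 and 63, and the cells were 15.2% of the filtered knockout cells. With a minimum of 1 Cxcl9 UMI these were 29, 32 and 23.8%, with a minimum of 5 they were 74, 101 and 8.92%, and with cells thinned to 5000 UMIs 84, 178 and 10.1%. The share was 17.3% with no filter on genes or mitochondrial UMIs. A minimum mean of 50 CPM gave 24 and 30, and one of 5 CPM gave 149 and 174. Wild type cells without Cxcl9 as the comparison gave 212 and 205, Vcam1-bearing knockout cells 30 and 20, and medians within clusters 23 and 34, of which 16 and 20 were among the 49 and 63. Leaving out cluster 11 (56, 72 and 14.1%) or the barcodes found in both matrices (48, 63 and 15.2%) was added after the data were seen. The cause of these shifts was not tested.

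Of the named genes, 62 were at least 1.5-fold higher and 56 lower. Within clusters 35 of 61 and 26 of 56 were still past the limit, and the log2 ratio changed sign for Gbp7 (-0.16), Ifit1 (-0.96), Oasl2 (-0.034), Tnc (-0.27), Hist1h1e (-0.0095), Pi16 (0.28) and Cd74 (2.92). Mki67 had no finite median within clusters and is not in these counts, but it was lower in 5 of 6 clusters. Against Vcam1-bearing cells 42 of 62 and 28 of 46 were past it, and it changed sign for Vcam1 (-0.82), Cthrc1 (-0.19), Pi16 (0.21) and Igfbp5 (0.016). Against wild type cells it changed sign for C4b (1.12). Under the other settings 0 of the named genes changed sign. Genes with few UMIs, such as Cxcl10 in comparison cells, are limited by depth and by single cells with high counts.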
